A study of Danio rerio with 14 samples.

Results

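Cell cycle genes were followed in the intestine of zebrafish carrying an agouti transgene and of wild-type zebrafish. The group was chosen by name: 36 zebrafish symbols of DNA replication and mitosis, matched to the count table without regard to case. They gave 39 of the 32520 gene rows. Of the 36 names, 34 matched a symbol directly and 2, birc5a and prc1a, matched through the human-style symbols BIRC5 and PRC1. MCM6, RRM2 and PRC1 each had 2 rows, which are told apart by their Ensembl identifiers. All 39 rows passed the filter on low counts, and all are counted below. MCM6 (ENSDARG00000033231) passed only through the 4 libraries described below as holding ovary transcripts, with at most 4 counts in each other library.

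Poly-A RNA was sequenced from 14 libraries. The transgenic fish carried Tg(Xla.Eef1a1:Cau.Asip1)iim04. Read by the common naming rules, this is a goldfish agouti gene, Asip1, driven by a frog promoter, that of the housekeeping gene Eef1a1. The wild-type fish are labelled Tubingen. Since no strain is given for the transgenic fish, strain and transgene cannot be told apart, and the labels give neither age nor sex. A final M or H in every title divides both genotypes, with a meaning that no label gives. Libraries are called here by their titles: ASIP13H, ASIP14H and ASIP16H (transgenic H), ASIP9M, ASIP10M and ASIP11M (transgenic M), WT5H to WT8H (wild-type H) and WT1M to WT4M (wild-type M). Where values are listed without library names, they follow this order within each group. No label says that the libraries are from separate fish, so p-values reflect the spread among these libraries, part of which may be technical.

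A cell that divides first loads the MCM helicase onto its replication origins, then copies its DNA with the sliding clamp PCNA and with nucleotides made by ribonucleotide reductase. Mitotic cyclins and the kinase Cdk1 next drive it into mitosis, where spindle motors and checkpoint kinases act until the anaphase-promoting complex has cyclins and securin destroyed. In the gut, such genes mark the dividing cells at the base of the epithelium, while absorptive enterocytes no longer divide. Oocytes also hold large stores of cell cycle transcripts, which support the first divisions of the embryo.

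A transgenic library held 11792225 to 14091791 counts, and a wild-type library 9847910 to 13727372. Levels are given as CPM, a gene's count relative to the library total, scaled by TMM factors. Of the H libraries, 4 held ovary transcripts: the egg coat gene zp3b was at 52.9 CPM in ASIP13H, against 2729.9, 321 and 129.8 CPM in WT6H, WT7H and WT8H, and at 0.147 to 0.938 CPM in the other 10 libraries. The summed level of 28 ovary and oocyte markers was 492 CPM in ASIP13H, against 24942, 2915 and 1142 CPM in WT6H, WT7H and WT8H, and 4.56 to 17.0 CPM elsewhere. A 29th marker, RNF213, was left out of this sum after its values were seen, because it was abundant in libraries that lacked the others. Both SOX11 rows were kept, although they had counts in every library. In the other 10 libraries, SOX11 (ENSDARG00000095743) was at 2.03 to 5.58 CPM and SOX11 (ENSDARG00000077811) at 0.208 to 1.81 CPM. In WT6H they were at 228 and 0.999 CPM. Low sums therefore partly reflect these rows and need not be ovary transcripts. All 28 markers had counts in those 4 libraries, while 5 to 21 of them were at 0 in each other library. The label intestine was checked with 25 markers of absorptive enterocytes, whose summed level was 296 CPM in WT6H, 2721 CPM in WT7H and 15563 to 39761 CPM in the other 12 libraries. WT6H and WT7H thus stood apart, and the tests that include them were also run without them. In bulk samples, fewer cells of a type and less RNA per cell cannot be told apart.

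The summed level of the 39 rows was 1181, 585 and 1141 CPM in the transgenic H libraries, against 541, 10973, 2094 and 1432 CPM in the wild-type H libraries. In the M libraries it was 991, 748 and 1043 CPM in transgenic fish, against 762, 1430.5, 536 and 985 CPM in wild-type fish. WT6H alone exceeded every other library, and WT7H came next. On plain totals, without TMM factors, WT7H was at 3282 CPM, and all its CPM values below move by the same factor. Apart from these libraries, the sums of both genotypes overlapped, in H and in M.

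**Figure D1:**
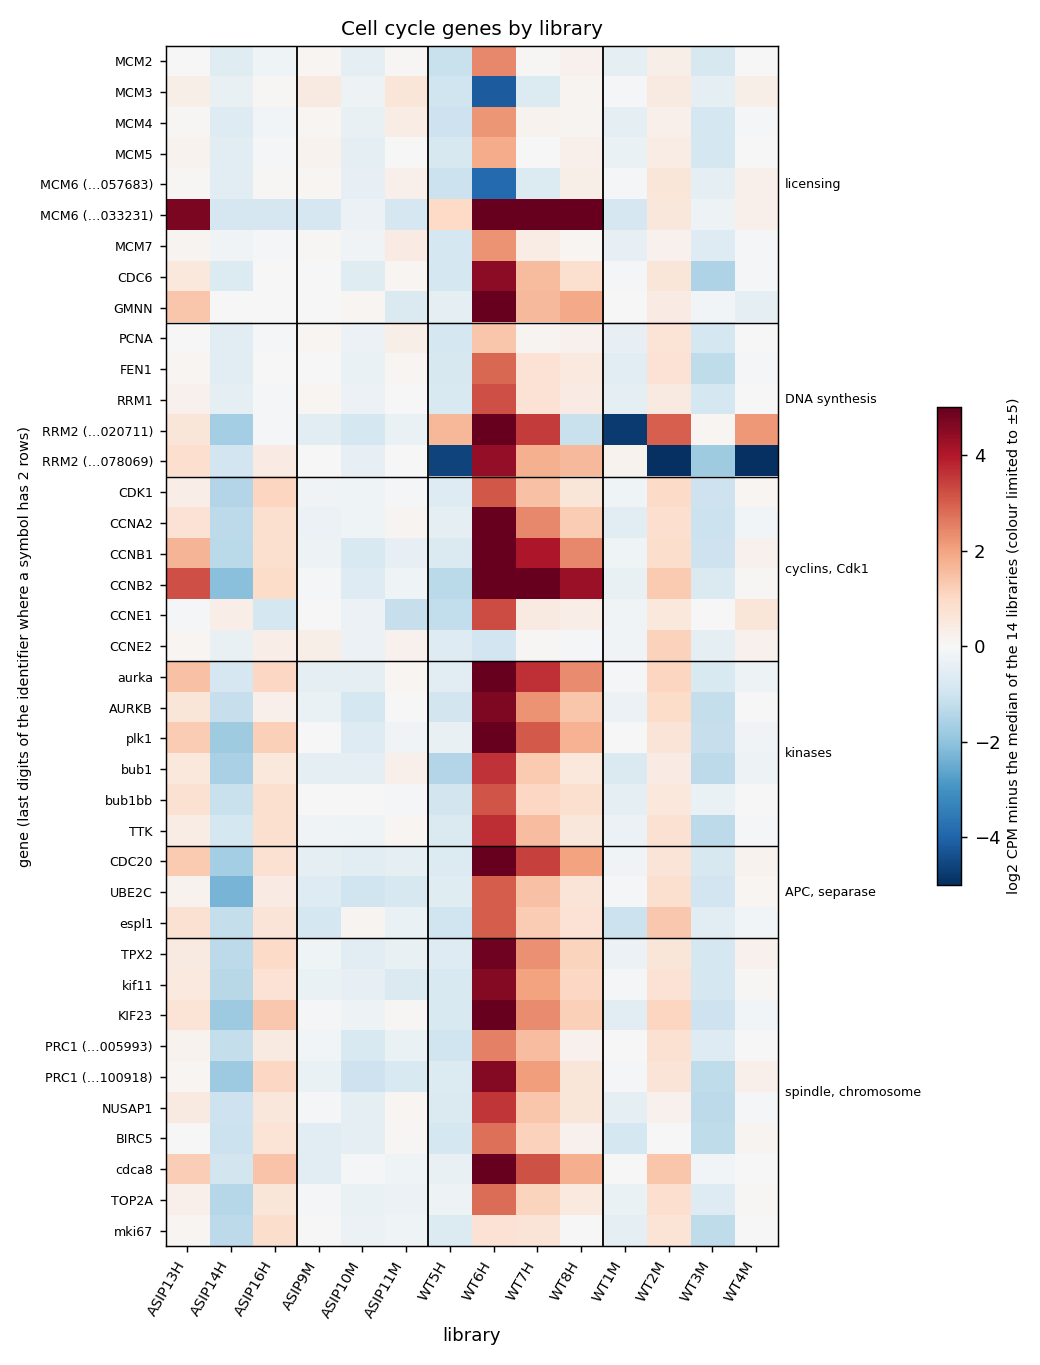
Level of each of the 39 cell cycle rows (down the page, by role) in the 14 libraries (across), as log2 CPM minus the row's median over all libraries, with colours limited to ±5. WT6H is high in nearly all rows, MCM3, MCM6 (ENSDARG00000057683) and CCNE2 excepted. WT7H, WT8H, ASIP13H and ASIP16H are high mainly in mitotic rows, and all but ASIP16H also in the licensing row MCM6 (ENSDARG00000033231). The wild-type libraries differ widely from each other in both RRM2 rows.

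In edgeR with all 14 libraries, no cell cycle row passed the test between transgenic and wild-type fish. With edgeR's quasi-likelihood test over 18619 genes and Benjamini-Hochberg adjustment, 0 of 39 rows had an adjusted p under 0.05 for genotype averaged over M and H, where 4.21% of all genes did. Likewise 0 of 39 passed for genotype within the M libraries (0.956% of all genes) and 0 of 39 within the H libraries (1.15% of all genes). Nor did any row pass for the difference between the genotype effect in H and that in M, where 0% of genes passed. At an unadjusted p under 0.05, 13 rows were lower for genotype averaged over M and H, as were 11.4% of all genes. Within M there were 0 such rows in either direction, against 7.97% of all genes. Within H 21 rows were lower, against 16.9% of all genes, and for the effect in H minus that in M 3 rows were lower, against 4.98% of all genes. The median log2 fold change of the 39 rows, transgenic over wild-type, was -0.98 averaged over M and H, -0.16 within M and -1.92 within H, beside medians of all genes of -0.11, -0.01 and -0.17.

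DESeq2 gave other counts from the same libraries. It called 5 of 39 rows lower in transgenic fish averaged over M and H (CCNB2, CCNB1, aurka, CDC20 and one RRM2 row), where it called 4.62% of all genes lower. Within H it called 15 rows lower, where it called 6.62% of all genes lower, and within M it called 0, where it called 2.71% of genes in either direction. For the difference between H and M it called 0 rows and 0.129% of genes in either direction. In a fit without WT6H and WT7H, added after seeing the data, DESeq2 tested 38 rows and called 0 for genotype averaged over M and H (10.8% of genes in either direction) and 0 within H (4.75% of genes).

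Without WT6H and WT7H, 0 of 39 rows passed in edgeR for genotype averaged over M and H, although 7.88% of all genes did. Within M (3.86% of genes) and within H (1.99% of genes) the count was also 0, and 0 rows reached an unadjusted p under 0.05 in these comparisons, against 22% of genes averaged over M and H, 17.8% within M and 15.1% within H. The median log2 fold change within H was then 0.06, with 21 rows positive and 18 negative. Without all 4 H libraries that held ovary transcripts, a choice made after seeing the data, 38 rows were tested and 0 passed within H, where 0.644% of genes did, and 0 rows had an unadjusted p under 0.05. The median within H became 0.83, with 37 of 38 rows positive, but WT5H was then the sole wild-type H library and was assumed to vary like the other groups. The sign of the genotype difference within H thus depended on which H libraries were compared. No share of all genes by sign stands beside these counts of positive rows, so how unusual they are is not known.

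**Figure D2:**
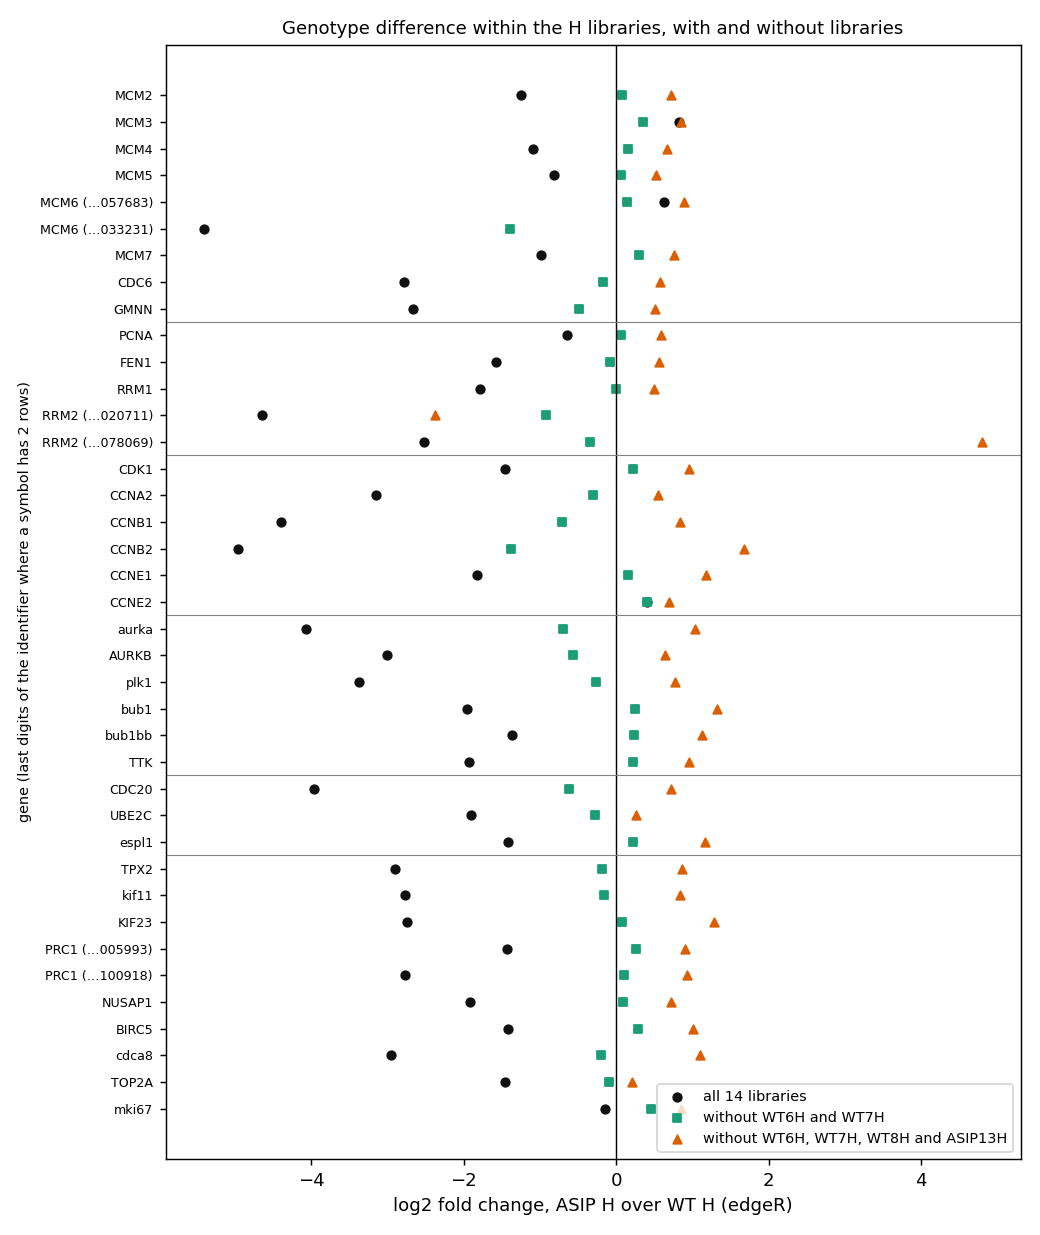
Log2 fold change of each cell cycle row within the H libraries, transgenic over wild-type (across), from edgeR with all 14 libraries (circles), without WT6H and WT7H (squares) and without WT6H, WT7H, WT8H and ASIP13H (triangles). The medians are -1.92, 0.06 and 0.83, and no row passed in any of these fits.

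The H and M libraries were compared within each genotype. In transgenic fish, 0 of 39 rows passed in edgeR and 0% of all genes did, 1 row was higher in H at an unadjusted p under 0.05 (0.854% of all genes), and DESeq2 called 0 rows and 0.197% of genes in either direction. In wild-type fish, 0 of 39 rows passed in edgeR, where 0.00537% of all genes did, and 26 rows were higher in H at an unadjusted p under 0.05, as were 16.7% of all genes. The median log2 fold change, H over M, was 0.41 in transgenic fish and 2.24 in wild-type fish, beside 0.02 and 0.08 for all genes. DESeq2 called 19 rows higher in H in wild-type fish, where it called 7.64% of all genes higher, and 0 rows without WT6H and WT7H, where it called 0.423% of genes in either direction. WT5H also decided calls. With that library left out, the wild-type H libraries were WT6H, WT7H and WT8H, all of which held ovary transcripts. In that fit edgeR called 21 rows higher in H in wild-type fish (9.41% of all genes). It called 8 rows lower in transgenic H than in wild-type H (3.63% of all genes). Without WT6H and WT7H, 0 rows and 0% of genes passed in wild-type fish, 2 rows were higher in H at an unadjusted p under 0.05 (3.63% of all genes), and the median was 0.13.

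Origin licensing is carried out by the 6 subunits of the MCM helicase with the loader CDC6, and is held in check by geminin (GMNN). MCM4, an MCM subunit, was at 84.2, 51.3 and 73.5 CPM in the transgenic H libraries, against 39.3, 374, 90.4 and 87.8 CPM in the wild-type H libraries. In the M libraries it was at 85.6, 61.8 and 104 CPM in transgenic fish, against 58.2, 94.4, 43.8 and 76.3 CPM in wild-type fish. Both genotypes overlapped in H and in M, and WT6H stood above all others. MCM7, another subunit, was at 54.8, 44.7 and 46.6 CPM in transgenic H, against 27.0, 241, 65.2 and 53.5 CPM in wild-type H. Its M libraries were at 52.0, 44.1 and 66.97 CPM in transgenic fish, against 38.0, 58.3, 32.3 and 48.6 CPM in wild-type fish, again with overlap. Over the 9 licensing rows the summed level was 469, 295 and 392 CPM in transgenic H, against 210.1, 2221, 482 and 515 CPM in wild-type H.

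DNA synthesis was represented by PCNA, the flap endonuclease FEN1 and both subunits of ribonucleotide reductase. PCNA had the highest mean FPKM of the 39 rows, 122.5, a level per length of gene. It was at 156, 107 and 153 CPM in transgenic H, against 86.5, 423, 175 and 184 CPM in wild-type H. In M it was at 170.0, 132 and 194 CPM in transgenic fish, against 121.7, 255, 87.5 and 164 CPM in wild-type fish. The M libraries averaged 165 ± 31.4 CPM in transgenic fish (SD, n = 3) and 157 ± 72.6 CPM in wild-type fish (SD, n = 4), so the genotypes differed by less than the spread between libraries. RRM1, the large reductase subunit, was at 71.5, 44.2 and 58.9 CPM in transgenic H, against 36.5, 581, 102 and 81.9 CPM in wild-type H. Its M libraries were at 65.8, 49.9 and 63.3 CPM in transgenic fish, against 44.9, 85.4, 33.5 and 60.6 CPM in wild-type fish.

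Cyclins B1 and B2, which drive mitotic entry, spanned a wide range between libraries. CCNB1, cyclin B1, which activates Cdk1, was at 32.5, 3.75 and 17.2 CPM in transgenic H, against 5.91, 1278, 164 and 53.2 CPM in wild-type H. In M it was at 8.23, 5.67 and 7.44 CPM in transgenic fish, against 8.54, 18.3, 4.70 and 11.3 CPM in wild-type fish. The 4 highest libraries were those with ovary transcripts, and the genotypes overlapped. CCNB2, cyclin B2, was at 19.4, 0.313 and 3.73 CPM in transgenic H, against 0.634, 849, 84.0 and 40.8 CPM in wild-type H. All 7 M libraries were low, at 1.84, 1.17 and 1.61 CPM in transgenic fish, against 1.45, 4.92, 1.07 and 1.96 CPM in wild-type fish. Within H, the log2 fold change of CCNB2, transgenic over wild-type, was -4.96 (SE 1.78, adjusted p = 0.146 in edgeR), and it was -1.38 (SE 1.36, adjusted p = 0.713) without WT6H and WT7H.

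Among kinases of mitosis and of its checkpoint, plk1, a kinase of mitotic entry and spindle assembly, was at 21.1, 2.40 and 20.1 CPM in transgenic H, against 6.65, 494, 73.9 and 28.9 CPM in wild-type H. In M it was at 8.82, 5.44 and 7.70 CPM in transgenic fish, against 8.39, 13.5, 3.79 and 7.56 CPM in wild-type fish. aurka, a kinase of the spindle poles, was at 7.94, 1.46 and 5.85 CPM in transgenic H, against 1.80, 289.6, 35.95 and 14.8 CPM in wild-type H. Its M libraries were at 1.98, 1.94 and 2.96 CPM in transgenic fish, against 2.53, 5.94, 1.57 and 2.24 CPM in wild-type fish. The lowest H libraries of both kinases were ASIP14H and WT5H, with ovary markers at 8.13 and 17.0 CPM, while plk1 in ASIP16H, with ovary markers at 6.86 CPM, was close to its level in ASIP13H. AURKB, bub1, bub1bb and TTK, which watch over the attachment of chromosomes, had their highest level in WT6H as well, at 25.1 to 209.5 CPM. Below WT6H and WT7H, TTK was highest in ASIP16H at 17.7 CPM and WT2M at 17.3 CPM, both low in ovary markers. WT8H was at 14.9 CPM and ASIP13H at 12.9 CPM.

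Mitotic exit was represented by CDC20, an activator of the anaphase-promoting complex, its ubiquitin-conjugating enzyme UBE2C, and separase (espl1). CDC20 was at 18.7, 2.19 and 12.96 CPM in transgenic H, against 4.65, 591, 82.5 and 30.7 CPM in wild-type H. In M it was at 5.51, 5.05 and 5.41 CPM in transgenic fish, against 6.73, 12.0, 4.203 and 8.40 CPM in wild-type fish. UBE2C was at 11.3, 1.88 and 13.4 CPM in transgenic H, against 6.44, 83.4, 27.9 and 15.5 CPM in wild-type H. Its M libraries were at 6.32, 4.97 and 5.58 CPM in transgenic fish, against 9.19, 17.4, 5.11 and 10.8 CPM in wild-type fish. Within M, UBE2C had the lowest log2 fold change of the genes given by role, -0.92 (SE 0.78, adjusted p = 1 in edgeR), and 1 wild-type library, WT3M, lay among the transgenic ones. espl1 had the lowest mean FPKM of the 39 rows, 0.476.

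Among spindle, midzone and chromosome proteins, kif11, the motor that pushes spindle poles apart, was at 22.3, 5.94 and 26.6 CPM in transgenic H, against 9.19, 392, 64.4 and 32.4 CPM in wild-type H. In M it was at 12.6, 12.0 and 9.64 CPM in transgenic fish, against 15.1, 26.5, 8.65 and 16.7 CPM in wild-type fish. TPX2, a spindle assembly factor that activates aurora A, was at 20.5, 5.94 and 29.0 CPM in transgenic H, against 9.61, 434, 74.1 and 32.8 CPM in wild-type H. Its M libraries were at 13.01, 10.3 and 11.5 CPM in transgenic fish, against 12.1, 23.1, 8.08 and 17.2 CPM in wild-type fish. The genotypes overlapped in every case. The proliferation marker mki67, chosen after its values were seen, differed from these genes. It was at 73.3, 27.7 and 126 CPM in transgenic H, against 42.9, 115, 108 and 69.4 CPM in wild-type H. For mki67, WT6H did not exceed ASIP16H. kif11 and TPX2 were picked by mean FPKM, which WT6H raised. By median FPKM they were at 4.53 and 3.69, below mki67 at 8.08.

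Within H, roles other than licensing and DNA synthesis had the lower fold changes of transgenic over wild-type fish, each with a wide error. The median log2 fold change was -1.09 for licensing, -1.78 for DNA synthesis, -2.49 for cyclins and Cdk1, -2.49 for kinases, -1.91 for mitotic exit and -2.33 for spindle and chromosome proteins. Without WT6H and WT7H these medians were 0.08, -0.08, -0.08, -0.02, -0.28 and 0.08, all near 0. CCNB1 had -4.39 (SE 1.42, adjusted p = 0.132 in edgeR) with all libraries and -0.71 (SE 0.90, adjusted p = 0.785) without them. For TPX2 these values were -2.90 (SE 1.04, adjusted p = 0.146) and -0.18 (SE 0.65, adjusted p = 0.934). MCM4 had -1.09 (SE 0.61, adjusted p = 0.274) with all libraries, against 0.16 (SE 0.41, adjusted p = 0.905). PCNA had the smallest difference of the 12 genes given above, at -0.64 (SE 0.49, adjusted p = 0.411) with all libraries.

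Between H and M libraries of wild-type fish, the largest differences among these 12 genes were in mitotic genes, at 6.70 on the log2 scale for CCNB2 (SE 1.71, adjusted p = 0.108 in edgeR), 5.13 for CCNB1 (SE 1.299, adjusted p = 0.108) and 4.80 for aurka (SE 1.21, with the same adjusted p). MCM7 was at 1.12 (SE 0.52, adjusted p = 0.247) and PCNA at 0.47 (SE 0.45, adjusted p = 0.552). The 12 genes were picked by mean FPKM over all 14 libraries, which WT6H raised. CCNB2 had a mean of 45.5 FPKM and a median of 1.23, with 514 in WT6H. Large differences in such genes are thus partly built into the choice. All 12 genes were higher in H on average, and none of them passed. The values without WT6H and WT7H were 3.16 for CCNB2 (SE 1.296, adjusted p = 0.692), 1.48 for CCNB1 (SE 0.83, adjusted p = 0.833) and 1.46 for aurka (SE 0.78, adjusted p = 0.824), and the sign turned for MCM7 (-0.13) and PCNA (-0.22).

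The excess in the libraries with ovary transcripts was uneven across roles. Against the median of the wild-type M libraries, 38 rows could be set as a ratio, and the remaining MCM6 row is described below. Such ratios were not worked out for all genes, so how unusual the counts of rows are is not known. In WT6H the median ratio was 12.97, with 35 of 38 rows above 1 and 22 above 10. By role, the median was 5.56 for licensing, 11.01 for DNA synthesis, 27.5 for cyclins and Cdk1, 23.2 for kinases, 11.3 for mitotic exit and 18.8 for spindle and chromosome proteins. Single rows ran between 0.0491 for MCM3 and 499 for CCNB2, with PCNA at 2.96 and mki67 at 1.91. The median ratio was 3.15 in WT7H and 1.73 in WT8H, and in ASIP13H it was 1.59 against the median of the transgenic M libraries. CCNB2 had the highest ratio in each of these libraries, at 49.3 in WT7H, 23.9 in WT8H and 12.0 in ASIP13H. The part that ovary transcripts played in these ratios was not tested, and their summed levels are those given above.

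**Figure D3:**
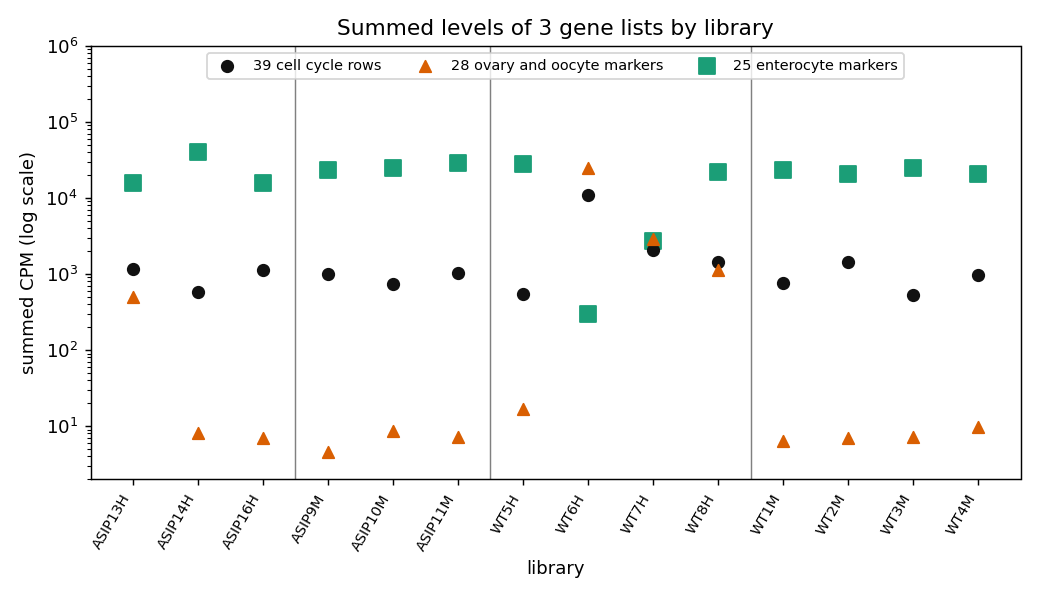
Summed CPM (log scale) of the 39 cell cycle rows (circles), 28 ovary and oocyte markers (triangles) and 25 enterocyte markers (squares) in the 14 libraries. The cell cycle sum is 10973 CPM in WT6H, where the ovary sum is 24942 and the enterocyte sum 296, and the ovary sum is at most 17.0 CPM in the 10 libraries other than ASIP13H, WT6H, WT7H and WT8H.

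Some rows kept an even ratio to the egg coat gene zp3b over the 4 libraries with ovary transcripts, although zp3b itself was at 52.9 to 2729.9 CPM there. The ratio of CCNB2 to zp3b in CPM was 0.366 in ASIP13H, against 0.311, 0.262 and 0.314 in WT6H, WT7H and WT8H. That of MCM6 (ENSDARG00000033231) was 0.145 in ASIP13H, against 0.139, 0.135 and 0.102 in the same wild-type libraries. For each row, the highest of the 4 ratios was divided by the lowest. This quotient was under 1.5, a limit set after the values were seen, for 4 of 39 rows: CCNB2 at 1.397, aurka at 1.42, MCM6 (ENSDARG00000033231) at 1.42 and CCNB1 at 1.499. Its median was 5.98 over the 39 rows, with 32.9 for mki67 and 1185 for MCM3, and it was 1.65 over the other 27 ovary markers. The 4 libraries share this RNA source by their markers, so the quotients are a description with no test. MCM6 (ENSDARG00000033231) also passed the filter on low counts only through these libraries. Quotients were not worked out for all genes, so no share over all genes stands beside the 4 of 39 rows.

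In 3 gene families, 1 paralog was found almost only in the libraries with ovary transcripts, while the other had counts in all 14. These pairs were chosen after their values were seen. For MCM6, the row ENSDARG00000033231 took 12.5% of the counts of both rows in ASIP13H, against 99.1%, 56.9% and 17.2% in WT6H, WT7H and WT8H, and at most 1.69% in the other 10 libraries. It had 0 counts in 5 libraries, which allows a share of up to 0.391% to 0.860%. The other row, ENSDARG00000057683, was at 53.9, 36.4 and 54.1 CPM in transgenic H, against 24.5, 3.36, 32.7 and 63.7 CPM in wild-type H, so that WT6H, highest for most rows, was lowest for this one.

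MCM3 and its paralog mcm3l, which is not among the 39 rows, gave the same picture. mcm3l was at 10.8, 0.208 and 0.0847 CPM in transgenic H, against 0.528, 478, 49.3 and 17.7 CPM in wild-type H. In M it was at 0.221, 0.0777 and 0 CPM in transgenic fish, against 0.0723, 0.649, 0.165 and 0.0934 CPM in wild-type fish. MCM3 was at 62.5, 39.1 and 52.5 CPM in transgenic H, against 25.3, 2.72, 31.8 and 56.3 CPM in wild-type H. In M, MCM3 was at 70.1, 42.9 and 78.1 CPM in transgenic fish, against 49.3, 68.8, 37.4 and 61.6 CPM in wild-type fish. In WT6H the summed MCM3 and mcm3l counts were 5295, of which mcm3l took 99.4% (exact 95% Clopper-Pearson interval 99.2% to 99.6%). In the frog Xenopus, Mcm3 and Mcm6 each have a maternal and a zygotic form. A supplied RefSeq gene table of the zebrafish lists MCM3z as a synonym of mcm3 and MCM3m of mcm3l, and MCM6z of mcm6 and MCM6m of mcm6l, but it does not tie the MCM6 rows of the count table to these genes.

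The survivin genes, whose products sit in the chromosomal passenger complex, also had such a paralog. birc5b, not among the 39 rows, was at 3.10 CPM in ASIP13H, against 119, 13.4 and 6.30 CPM in WT6H, WT7H and WT8H. It had 0 counts in the other 10 libraries, which at 13 to 59 counts for both genes allows a share of up to 5.08% to 23.1%. BIRC5, the row that matched birc5a, was found in all libraries, at 3.01, 1.36 and 4.999 CPM in transgenic H, against 1.58, 21.4, 6.98 and 3.60 CPM in wild-type H. Unlike MCM3 and MCM6 (ENSDARG00000057683), BIRC5 was highest in WT6H. The E-type cyclins, which act at the start of DNA replication, differed less. CCNE1 took 37.5% of CCNE1 and CCNE2 counts in ASIP13H, against 93.2%, 47.1% and 47.0% in WT6H, WT7H and WT8H, and 19.8% to 52.9% in the other 10 libraries. CCNE2 was lowest in WT6H, at 2.72 CPM, where CCNE1 was highest, at 37.6 CPM. Shares and intervals cover counting error only.

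**Figure D4:**
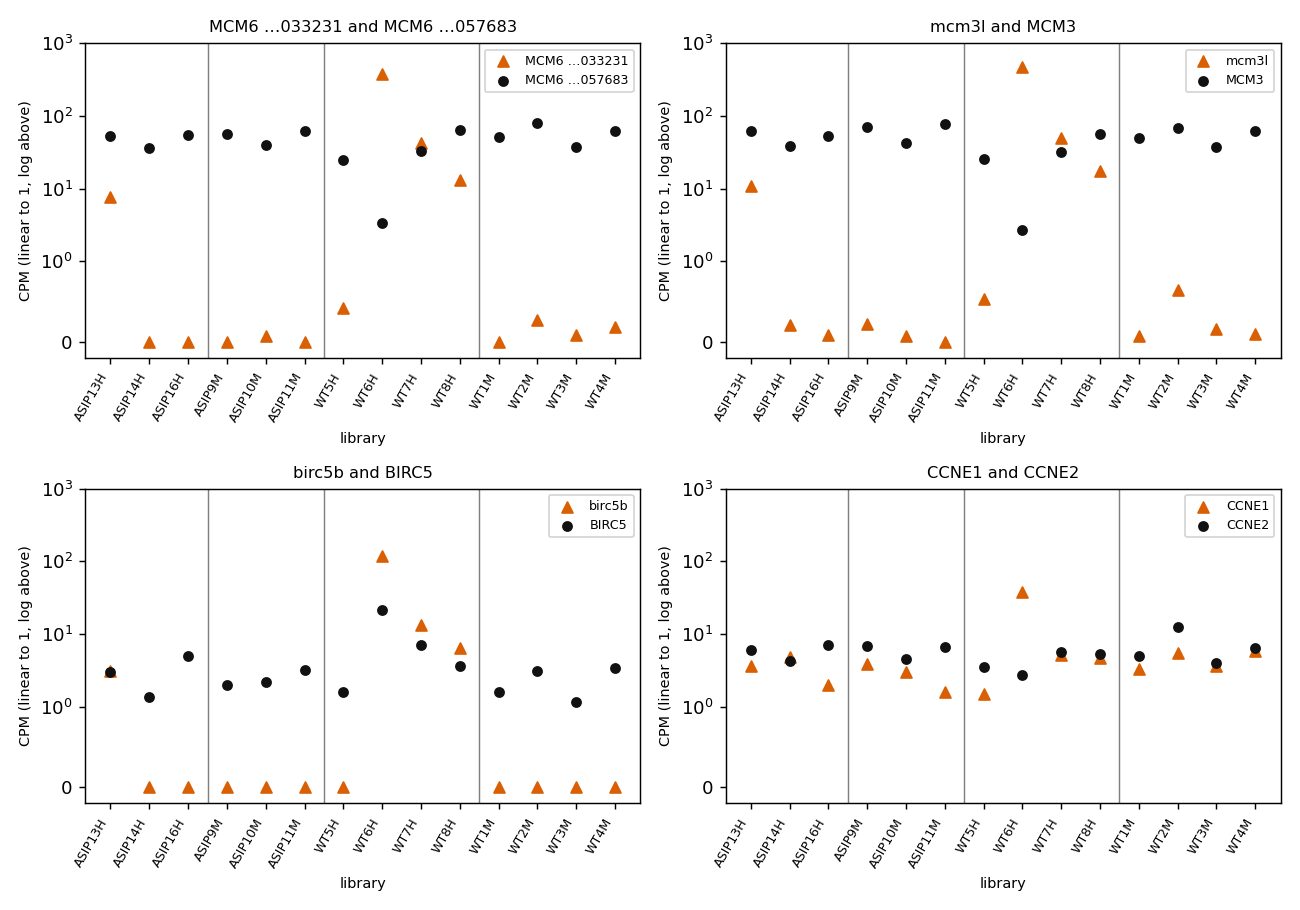
Levels in CPM (linear up to 1, logarithmic above) of 4 paralog pairs in the 14 libraries, the first-named gene as triangles and the second as circles. MCM6 (ENSDARG00000033231), mcm3l and birc5b are at 3.10 CPM or more in ASIP13H, WT6H, WT7H and WT8H and at most 0.649 CPM elsewhere, while MCM3 and MCM6 (ENSDARG00000057683) are lowest in WT6H.

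Libraries low in ovary transcripts also varied. ASIP16H had a median ratio to the transgenic M libraries of 1.85, and its rows split by role. The median was 2.16 for cyclins and Cdk1, 2.03 for kinases, 2.40 for mitotic exit and 2.26 for spindle and chromosome proteins, against 0.922 for licensing and 0.976 for DNA synthesis. Above 1 were 5 of 6 rows of cyclins and Cdk1, 6 of 6 of kinases, 3 of 3 of mitotic exit and 10 of 10 of spindle and chromosome proteins. The cyclin row below 1 was the E-type cyclin CCNE1, at 0.643. Only 1 of 8 licensing rows and 2 of 5 DNA synthesis rows were above 1. Its 28 ovary markers summed to 6.86 CPM with 17 of them at 0. Of this sum, SOX11 (ENSDARG00000095743) gave 3.64 CPM and zp3b 0.508 CPM. Its goblet cell markers summed to 429 CPM, the highest of the 14 libraries and 53.03 to 330.1 CPM in the others, and their part in the ratios was not tested. ASIP14H had a median ratio of 0.523 with 36 of 38 rows below 1, and it was the lowest transgenic H library for 37 of 39 rows, where it was lowest for 40.1% of all genes. Its enterocyte markers summed to 39761 CPM, the highest of the 14 libraries, and their part was not tested. WT5H may have held traces of ovary transcripts, with ovary markers at 17.0 CPM, 5 of them at 0, and zp3a.2 at 1.69 CPM. It had a median ratio of 0.619 to the wild-type M libraries, and 37 of 38 rows were below 1. Ratios above or below 1 were not counted over all genes in any of these libraries.

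The M libraries gave the comparison of genotypes with the fewest ovary transcripts. The 28 ovary markers summed to 4.56 to 8.62 CPM in transgenic M and 6.37 to 9.71 CPM in wild-type M, to which SOX11 (ENSDARG00000095743) alone gave 2.03 to 5.58 CPM. In these libraries 12 of 39 rows were higher and 27 lower in mean, with no share of all genes by sign beside them. Their log2 fold changes ran from -2.36 to 1.35, both ends being RRM2 rows. The 12 genes listed above by role ran between -0.92 for UBE2C and 0.30 for MCM4 and MCM7. None of the 39 rows had groups that did not overlap, where 9.83% of all genes lay higher and 9.32% lower without overlap. Within H no row had groups that did not overlap either, where 7.64% lay higher and 6.03% lower, or without WT6H and WT7H, where 13.5% lay higher and 15% lower. The same held for all 6 transgenic against all 8 wild-type libraries, where 2.25% lay higher and 1.48% lower.

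Within M, single libraries of wild-type fish lay far apart. mki67 was at 68.4, 56.5 and 59.8 CPM in transgenic M, against 50.2, 110.2, 28.6 and 70.1 CPM in wild-type M. It averaged 61.6 ± 6.17 CPM in transgenic M (SD, n = 3) and 64.8 ± 34.7 CPM in wild-type M (SD, n = 4). WT2M was the highest wild-type M library for 36 of 39 rows, where it was highest for 33.0% of all genes, and WT3M the lowest for 32 of 39, where it was lowest for 24.7%. Against the group's median, the median ratio was 1.70 in WT2M and 0.600 in WT3M. For cyclins and Cdk1 it was 2.12 in WT2M, and for licensing 1.41. Markers of neighbouring organs differed too: exocrine pancreas markers summed to 2046 CPM in WT2M and 43672 CPM in WT3M, and liver markers to 7769.6 CPM in WT2M and 57953 CPM in WT3M. In WT1M and WT4M the pancreas markers summed to 8036 and 5867 CPM, with cell cycle sums of 762 and 985 CPM. In transgenic M they summed to 28201 to 37229 CPM, with cell cycle sums of 748 to 1043 CPM. The part of pancreas and liver markers in the ratios was not tested.

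RRM2, the small subunit of ribonucleotide reductase, had 2 rows of near-equal length, 2448 and 2430 bases as worked out from the FPKM values. The row ENSDARG00000020711 took 19.9%, 14.1% and 16.7% of the counts of both rows in transgenic H and 16.5%, 17.1% and 18.2% in transgenic M. In wild-type fish it took 96.6%, 51.2%, 49.4% and 3.95% in H and 0.286%, 99.6%, 51.9% and 100% in M. The share was thus even over the 6 transgenic libraries. In the wild-type ones it was 0.286% and 3.95% in WT1M and WT8H, and 49.4% to 51.9% in WT6H, WT7H and WT3M. In WT5H, WT2M and WT4M it was 96.6% to 100%. WT4M had 316 counts in this row and 0 in the other, which allows the other a share of up to 0.949%. WT1M had 1 count in this row and 349 in the other. Sequences of the rows were not compared, and whether they share reads was not tested, so each row alone is uncertain.

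The sum of both RRM2 rows was more even than either row among the wild-type libraries, but still spanned a wide range in wild-type H. It was 50.1, 13.3 and 36.01 CPM in transgenic H, against 21.4, 982, 151 and 72.2 CPM in wild-type H. In M it was 26.2, 20.05 and 27.8 CPM in transgenic fish, against 25.3, 51.7, 13.2 and 29.5 CPM in wild-type fish. For genotype averaged over M and H, the log2 fold change was -3.51 in the row ENSDARG00000020711 (SE 1.18, adjusted p = 0.134 in edgeR) and -0.58 in the row ENSDARG00000078069 (SE 1.11, adjusted p = 0.793). The second value turned to 0.49 without WT6H and WT7H and to 3.07 without all 4 libraries with ovary transcripts. The counts of both rows summed, a choice made after seeing the data, gave -1.74 (SE 0.71, adjusted p = 0.209), and -0.38 (SE 0.42, adjusted p = 0.662) without WT6H and WT7H. The call that DESeq2 made for the row ENSDARG00000020711 (log2 fold change -3.55, adjusted p = 0.0041) is therefore a call on a row whose share of the pair also differed.

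**Figure D5:**
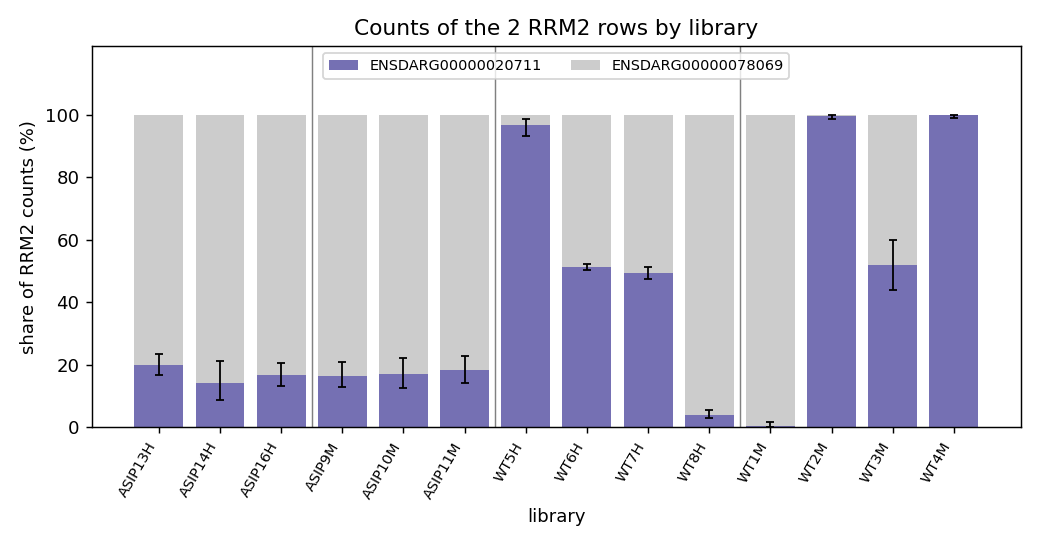
Share in % of the counts of both RRM2 rows taken by ENSDARG00000020711 (coloured) and ENSDARG00000078069 (grey) in each library, with exact 95% Clopper-Pearson intervals. Transgenic libraries lie at 14.1% to 19.9% in the coloured share. Wild-type libraries lie at 0.286% to 3.95%, at 49.4% to 51.9% or at 96.6% to 100%.

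Other genes of the cycle were read from 6 lists. Of 46 other replication genes, 1 passed in edgeR with all 14 libraries for genotype averaged over M and H, and 0 of 57 other mitosis genes did. Of all genes, 4.21% passed. None passed of 10 tested G1 cyclins and kinases, 15 inhibitors and arrest genes, 20 transcription factors and 9 oocyte-stored regulators, of which 1, 1, 5 and 1 had an unadjusted p under 0.05. Of all genes, 19.1% reached this p. DESeq2 called 2 of 46 replication genes, 3 of 56 mitosis genes, 3 of 20 transcription factors and 1 of 11 oocyte-stored regulators lower, and 0 genes of the other lists, where it called 4.62% of all genes lower. The medians were -0.59 for other replication genes and -1.13 for other mitosis genes, and 0.04 and -0.15 without WT6H and WT7H. In that fit the mitosis list had 1 gene at an unadjusted p under 0.05, against 22% of all genes. Within H the mitosis list had a median of -2.12, with 40 of 57 genes lower at an unadjusted p under 0.05 (16.9% of all genes). Without WT6H and WT7H its median within H was -0.02 with 0 such genes, where 15.1% of all genes reached this p in either direction.

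The replication gene that passed was dbf4, the regulatory subunit of the CDC7 kinase that fires licensed origins. It was at 6.67, 13.66 and 7.29 CPM in transgenic H, against 18.5, 15.3, 7.17 and 17.2 CPM in wild-type H. In M it was at 7.13, 6.06 and 4.40 CPM in transgenic fish, against 17.4, 19.1, 26.5 and 17.4 CPM in wild-type fish, where the groups did not overlap. It fell by 1.22 on the log2 scale in transgenic fish (SE 0.27, adjusted p = 0.0226 in edgeR). The change remained under the threshold in 10 of 14 fits that left out 1 library, with adjusted p of 0.0651, 0.0651, 0.0613 and 0.0686 without ASIP10M, ASIP11M, ASIP13H and ASIP16H. Without WT6H and WT7H it fell by 1.36 (adjusted p = 0.0035).

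In the other lists the genes with the smallest p did not pass. NEK2, a kinase that separates centrosomes, was at 4.66, 0.521 and 2.12 CPM in transgenic H, against 0.528, 204, 23.0 and 9.52 CPM in wild-type H, with a log2 fold change for genotype of -2.59 (SE 0.95, adjusted p = 0.171 in edgeR) and of -0.81 (adjusted p = 0.519) without WT6H and WT7H. For knl1, a kinetochore scaffold, the log2 fold change was -1.78 (SE 0.67, adjusted p = 0.179), and -0.94 without them. For WEE2, a kinase that holds Cdk1 inactive in oocytes, it was -2.67 (SE 0.96, adjusted p = 0.157), with 254 CPM in WT6H, and -0.84 without them. With all libraries the values were 0.43 (adjusted p = 0.278) for cnot6b and -0.63 (adjusted p = 0.136) for LIN52, a subunit of the DREAM repressor complex, against 0.37 and -0.60 without WT6H and WT7H. For cdk21, a G1 kinase, the value was 1.82 (adjusted p = 0.184), and 1.53 without them. CCND2 (ENSDARG00000051748), a D-type cyclin, gave -0.56 (adjusted p = 0.346), and -0.36 without them. The Cdk inhibitor gene cdkn1ca gave -0.87 (adjusted p = 0.268), and -0.24 without them.

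Without WT6H and WT7H, 3 more genes of these lists passed for genotype averaged over M and H, where 7.88% of all genes passed. MYBL2, the transcription factor B-Myb, which acts on genes of mitosis, was at 42.5, 46.6 and 41.2 CPM in transgenic H, against 7.08, 57.4, 25.6 and 17.4 CPM in wild-type H. In M it was at 40.6, 36.7 and 38.1 CPM in transgenic fish, against 12.9, 25.2, 7.75 and 15.96 CPM in wild-type fish. All transgenic libraries thus lay above all wild-type ones but WT6H. The log2 fold change was 1.57 (adjusted p = 0.0100 in edgeR) without WT6H and WT7H, and 1.004 (adjusted p = 0.182) with all libraries. In its paralog mybl2a the fold change was -0.87 on the log2 scale (adjusted p = 0.387) with all libraries and 0.16 (adjusted p = 0.721) without WT6H and WT7H.

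MYC (ENSDARG00000045695), 1 of 2 rows of this growth regulator, was at 7.85, 5.73 and 7.88 CPM in transgenic H, against 32.5, 2.72, 17.5 and 27.7 CPM in wild-type H. In M it was at 9.56, 12.8 and 21.99 CPM in transgenic fish, against 24.4, 23.9, 33.8 and 37.2 CPM in wild-type fish. WT6H was the lowest of all libraries, and the other wild-type H libraries were above the transgenic ones. Without WT6H and WT7H this row fell by 1.53 on the log2 scale averaged over M and H (adjusted p = 0.00198 in edgeR) and by 2.04 within H (adjusted p = 0.0121). CDKN3, a phosphatase of Cdk kinases, fell by 0.96 without these libraries (adjusted p = 0.0417), at low levels of 1.25 to 2.92 CPM in transgenic fish, against 2.97 to 5.70 CPM in the 6 wild-type libraries of that fit and 29.6 CPM in WT6H. With WT6H alone left out, MYBL2, MYC (ENSDARG00000045695) and CDKN3 also passed, with adjusted p of 0.0169, 0.00341 and 0.0416. The other MYC row, ENSDARG00000007241, was higher than the first in every library, and its genotypes overlapped. It was at 42.4, 51.6 and 155 CPM in transgenic H, against 254, 50.0, 71.5 and 108 CPM in wild-type H. In M this other row was at 43.1, 230 and 202 CPM in transgenic fish, against 113, 103, 278 and 243 CPM in wild-type fish.

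Within M, dbf4 fell by 1.78 on the log2 scale (adjusted p = 0.0068 in edgeR) without WT6H and WT7H, against an adjusted p of 0.0543 with all libraries. BTG2, an antiproliferative gene, passed within M in the same fit, where 3.86% of all genes passed, with a log2 fold change of 1.64 (adjusted p = 0.0374). Its M libraries were at 26.7, 45.6 and 83.6 CPM in transgenic fish, against 21.8, 11.04, 16.9 and 16.4 CPM in wild-type fish, with no overlap. Its adjusted p was 0.0592 with the 7 M libraries alone and 0.0588 without the 4 H libraries that held ovary transcripts. In H it was at 31.2, 21.3 and 32.8 CPM in transgenic fish, against 17.2, 413, 74.1 and 29.1 CPM in wild-type fish.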

How the data were processed

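Poly-A RNA of zebrafish intestine was extracted with Trizol and made into stranded libraries, per the labels' protocols. The deposited counts per gene are whole reads counted by the authors, and the deposited FPKM values are the same counts divided by gene length and library total, as checked on the values. The submitters' processing notes list FastQC, STAR 2.7.3a, featureCounts 1.6.3 and edgeR, and name the builds GRCz11, GRCm38.p6 and mm10 without a role. Whether counting used strand is not stated in these sources. Overlapping and near-identical genes may therefore share reads.

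Counts were fitted with edgeR 4.0.16 (R 4.3.3, limma 3.58.1) by the quasi-likelihood test, with 1 mean for each of the 4 groups, TMM scaling and filterByExpr, which kept 18619 genes. P-values were adjusted over all of them by Benjamini-Hochberg, with a threshold of 0.05, and SE is the size of the log2 fold change over the square root of F. CPM uses TMM-scaled totals, and the log2 CPM of the heat map a prior count of 2. FPKM served only to compare levels between genes. Alternatives were DESeq2 1.42.0, RLE scaling, no filter, plain totals, fits of the M or H libraries alone and fits without single libraries or sets of them. The script was tested on simulated data. Counting intervals are exact (Clopper-Pearson, 95%), and a count of 0 allows 3 counts.

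The 36 members and all other lists were chosen with earlier results of these data known. Members given in every library are the 2 of highest mean FPKM in each role, since none passed. This mean includes WT6H, so the choice favoured rows high in that library. From other lists, up to 4 passing genes or the 2 of smallest p were taken. Of 398 names in all lists, 364 matched a row, 329 by symbol and 35 by a human-style symbol. Among the 32520 rows, 29201 have a symbol. Promoter and protein sequences were not used here.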

Additional observations from a re-analysis of the deposited data

Results flagged for a closer look

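One value lay far from the other libraries of its group. cdca8, a subunit of the chromosomal passenger complex, was at 9.37 CPM in WT2M (log2 CPM 3.25), against 3.47, 3.13 and 3.45 CPM in WT1M, WT3M and WT4M. Its gap to the next library was wider than Dixon's 95% limit for 4 samples allows. Such a gap was looked for in 78 sets of 4 values from the same wild-type libraries, and chance alone gives about 1 in 20. A single gap among 78 is thus no more than chance would give. WT2M was the highest wild-type M library for 36 of the 39 cell cycle rows.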

How the results depend on the processing

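No paired analysis was possible because the groups share no replicate numbers in the titles. In edgeR, counts of passing rows stayed at 0 in all 6 comparisons under RLE scaling, with no filter and without WT6H and WT7H, and for genotype within M or H in the 7 M or 7 H libraries alone. DESeq2 called 5 rows lower for genotype averaged over M and H, 15 lower within H and 19 higher for H against M in wild-type fish, and 0 in all 6 comparisons without WT6H and WT7H. With single libraries left out, the counts ran between 0 and 8 (lower within H) and between 0 and 21 (higher in H in wild-type fish). The upper values both came without WT5H, where the remaining wild-type H libraries, WT6H, WT7H and WT8H, all held ovary transcripts. The cause was not tested. Within H, log2 fold changes turned positive without WT6H and WT7H for MCM4 (0.16), MCM7 (0.30), PCNA (0.065) and RRM1 (0.00057), and in DESeq2 for MCM4 (0.14), MCM7 (0.28) and PCNA (0.047). Without all 4 H libraries with ovary transcripts, they were 0.67 for MCM4, 0.76 for MCM7, 0.59 for PCNA, 0.50 for RRM1, 0.83 for CCNB1, 1.68 for CCNB2, 0.77 for plk1, 1.03 for aurka, 0.72 for CDC20, 0.26 for UBE2C, 0.83 for kif11 and 0.87 for TPX2. With single libraries left out, MCM7 ran between -1.21 and 0.021. The RRM2 row ENSDARG00000078069 gave 0.49 without WT6H and WT7H (0.50 in DESeq2) and 3.07 without all 4 for genotype averaged over M and H, and -0.79 to 0.40 with single libraries left out. On plain totals the summed level of WT7H was 3282 in place of 2094 CPM, within the spread of wild-type H, and the other 13 libraries moved less. Depth limits rows of few counts, such as birc5b.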
